A study of Mus musculus with 6 samples.

Results

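The genes described here are the adaptor family Grb10, Grb7 and Grb14, the receptors Insr and Igf1r, and the docking proteins Irs1 and Irs2. They were looked up by symbol in a table of 55573 features, and all 7 were found. Grb10 was picked because its RNA was nearly lost in the Matr3 knockout, so its values are given as a description with no test, whereas the other 6 were picked for their place in the same pathway. Bulk RNA-seq was done on cells labelled Hepa1-6, a mouse liver cancer line, with 3 libraries from a Matr3 knockout made by CRISPR/Cas9 and 3 from wild-type cells. Per the labels both groups were kept in DMEM with fetal bovine serum, so all of the cells were exposed to the growth factors of serum. Matr3 encodes matrin 3, an RNA-binding protein of the nuclear matrix. How many cultures or knockout clones lie behind the libraries, and whether knockout and wild-type cells share a parental clone, is not stated in the labels. A difference between the groups can thus not be told apart from one between clones, and the p-values reflect the spread among the libraries alone, and part or all of that may be technical.

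Insulin and the insulin-like growth factors bind receptor tyrosine kinases encoded by Insr and Igf1r, which phosphorylate the docking proteins IRS1 and IRS2 and thereby recruit PI3-kinase and start the AKT and mTORC1 cascades. GRB7, GRB10 and GRB14 are related adaptors that bind activated receptors. GRB10 and GRB14 restrain insulin and IGF signalling, and GRB10 is itself a substrate of mTORC1. Grb10 is imprinted in the mouse, being transcribed from the maternal allele in most tissues and from the paternal allele in neurons, from different promoters.

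Library totals lay between 20736570 and 30794032 counts. Matr3 was at 75.3 to 86.1 CPM (the usual depth-scaled unit, here with TMM-adjusted library sizes) in the knockout libraries and at 125 to 134 CPM in wild-type cells, so its mRNA was lower but present (log2 fold change -0.71, edgeR quasi-likelihood adjusted p = 0.00270). Knockout library 2 and wild-type library 1 stood apart from the other libraries of their groups, with chi-square values of 50.7 and 60.1 per gene for knockout library 2 against 3.31 between knockout libraries 1 and 3, and of 21.3 and 24.9 for wild-type library 1 against 5.86 between wild-type libraries 2 and 3. Between knockout and wild-type libraries the values were 38.5 to 64.8. Knockout library 2 was thus as far from the other knockout libraries as knockout from wild type, and was nearer to wild-type library 3 (43.7). The correlation between GC content and how far genes of a library deviated from their mean, taken over genes and not over replicates, was 0.26 for knockout libraries 1 and 3, -0.27 for knockout library 2 and -0.16 to -0.03 for the wild-type libraries. Markers of hepatocytes were largely absent from both groups, although the label names a liver line, and the identity of the line was not tested: Ttr, Serpina1a and Fgb had 0 counts, albumin (Alb) was at most 0.0319 CPM, Hnf4a at most 0.0431 CPM, and 1 of 9 markers found in the table reached a mean of 1 CPM. The hepatocyte list summed to 1.72 to 2.43 CPM in knockout cells and 2.93 to 4.19 CPM in wild-type cells. Of 4 cholangiocyte markers 3 exceeded 1 CPM, and the list summed to 645 to 684 CPM in knockout cells against 287 to 316 CPM in wild-type cells, nearly all of it from Krt19, while Krt7 was at most 0.0467 CPM. The fetal liver and hepatoma list summed to 2.14 to 3.55 against 4.64 to 5.17 CPM, nearly all from Afp, with Igf2, Gpc3 and Dlk1 at 0, and the endothelial list to 1.16 to 1.55 against 3.04 to 3.82 CPM. The macrophage list summed to 12.4 to 15.9 against 10.6 to 11.9 CPM, nearly all from Cd68, with Adgre1, Clec4f and Lyz2 at 0. The erythroid list summed to 0.258 to 0.528 against 0.0467 to 0.0761 CPM. The sums of the fibroblast list overlapped (528 to 640 against 585 to 686 CPM). Nearly all of them came from Col3a1 (511 to 616 against 571 to 670 CPM), while Col1a2 was at most 0.524 CPM and Acta2 at most 0.191 CPM. Within the list Col1a1 was higher in the knockout (15.2 to 24.0 against 11.2 to 12.5 CPM) and Pdgfrb lower (1.08 to 1.34 against 2.24 to 3.78 CPM). Lymphocyte markers summed to at most 0.114 CPM in any library. The part of these marker differences in the results below was not tested.

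Promoter windows from RefSeq (build GRCm38.p6, 250 bases before to 50 bases after an annotated start) were found for 5 of the 7 genes. Those of Grb10 and Igf1r are shown because these genes had lower RNA in the knockout, so the choice followed from that result. A link between promoter sequence and RNA level was not tested. The deposited count of a gene adds up transcripts from all its starts. Grb10 has windows at chr11:12037371-12037670 and chr11:12027922-12028221 (minus strand), and both lie within the annotated gene (GENCODE M21, 9 transcripts), each over 1 exon and 1 annotated transcript start. Their starts lie 1.26 and 10.71 kb from the 5′ end of the gene. The Igf1r window is chr7:67952007-67952306 (plus strand). Each sequence is written 5′ to 3′ on the gene's strand, with CpG dinucleotides, the sites of DNA methylation, in capitals.
Grb10, upstream start: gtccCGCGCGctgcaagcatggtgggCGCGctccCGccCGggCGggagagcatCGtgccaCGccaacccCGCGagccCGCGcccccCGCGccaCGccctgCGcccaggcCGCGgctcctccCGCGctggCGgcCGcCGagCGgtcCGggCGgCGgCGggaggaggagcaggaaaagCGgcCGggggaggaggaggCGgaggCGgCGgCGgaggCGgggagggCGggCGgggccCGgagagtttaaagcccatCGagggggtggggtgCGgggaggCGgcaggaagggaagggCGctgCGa
Grb10, downstream start: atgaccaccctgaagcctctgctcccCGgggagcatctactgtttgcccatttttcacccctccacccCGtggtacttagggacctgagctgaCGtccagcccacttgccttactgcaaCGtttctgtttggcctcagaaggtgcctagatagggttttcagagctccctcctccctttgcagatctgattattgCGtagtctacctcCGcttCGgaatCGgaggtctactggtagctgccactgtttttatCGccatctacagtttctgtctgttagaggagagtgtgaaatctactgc
Igf1r: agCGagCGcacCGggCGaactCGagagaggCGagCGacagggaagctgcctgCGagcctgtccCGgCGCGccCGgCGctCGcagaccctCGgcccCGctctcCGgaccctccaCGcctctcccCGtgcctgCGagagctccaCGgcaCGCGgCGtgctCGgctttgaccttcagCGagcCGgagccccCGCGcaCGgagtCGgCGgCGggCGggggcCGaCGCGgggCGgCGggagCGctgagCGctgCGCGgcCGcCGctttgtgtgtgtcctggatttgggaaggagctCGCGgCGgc
The upstream Grb10 window held 45 CpGs at 80.0% GC, more CpGs than 98.1% of the 32851 windows in the RefSeq set, whose median was 7. The downstream Grb10 window held 9 CpGs at 52.3% GC, more than 54.2% of all windows. The Igf1r window held 48 CpGs, more than 98.8% of windows. Among members that did not pass the test, the window of Irs2 held 41 CpGs, that of Grb14 30 and that of Irs1 28. These were more than 96.5%, 88.3% and 85.8% of windows, so CpG-rich starts were not particular to the genes with lower RNA. The motif GGGCGG, counted on both strands with overlapping matches included, occurred 5 times in the upstream Grb10 window, 0 times in the downstream one and 2 times in that of Igf1r, and 35.7% of all windows held at least 1. It also occurred 5 times in the window of Grb14, 2 times in that of Irs1 and 1 time in that of Irs2. A match describes these letters only. Methylation and factor binding were not measured here.

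Grb10 was the most abundant of the 7 genes in wild-type cells and the least abundant in the knockout. Grb10 (ENSMUSG00000020176; chromosome 11, 11880508 to 11988683, minus strand, in the coordinates of the deposited table) had 1, 5 and 0 counts in knockout libraries 1 to 3 and 4090, 6059 and 5984 counts in wild-type libraries 1 to 3. Every wild-type library thus held at least 4090 Grb10 reads and no knockout library more than 5. Scaled for depth, the wild-type libraries were at 190.9, 226.8 and 227.7 CPM and the knockout libraries at 0.0431, 0.160 and 0 CPM. Summed over libraries, 6 counts stood against 16133, which put the wild type 2998-fold above the knockout (exact 95% counting interval 1377 to 8171), or the knockout at 0.0334% of the wild-type level. The interval covers counting error only, since PCR copies of a molecule were counted as reads of their own where no molecular identifier marked them. In bulk RNA, fewer cells carrying a transcript and less transcript per cell cannot be told apart. The authors' deposited table gives a log2 fold change of -8.00 for Grb10. This is a smaller change than the ratio of summed counts and lies outside its counting interval. The method behind it was not named in the sources used here. No other annotated gene of the table overlaps Grb10 on either strand.

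Most genes around Grb10 were below the expression filter. Of 16 annotated genes within 500 kb of it, 1 passed the expression filter. This was Fignl1, an ATPase gene of DNA repair 121.5 kb away, which measured 109.3, 131.0 and 106.9 CPM in knockout cells and 95.5, 108.1 and 108.8 CPM in wild-type cells. The groups overlapped, and Fignl1 did not pass the test (log2 fold change 0.15, 95% interval -0.10 to 0.40, edgeR quasi-likelihood adjusted p = 0.376). Ddc, which encodes the aromatic amino acid decarboxylase and lies 32.4 kb from Grb10, had 4 counts in the knockout and 2 in the wild type. Cobl, an actin nucleator gene at 197.9 kb, and Ikzf1, a lymphoid transcription factor gene at 157.6 kb, had 0 counts in both, which allows up to 0.0361 CPM in knockout cells and 0.0403 CPM in wild-type cells at a limit of 3 counts per group.

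The remaining adaptors of the family were scarce in both groups. Grb14 (ENSMUSG00000026888; chromosome 2, 64742820 to 64855331, minus strand), which binds the activated insulin receptor and is known from liver, was at 2.63, 2.59 and 2.71 CPM in knockout cells and at 2.01, 2.54 and 1.86 CPM in wild-type cells. The knockout libraries lay above all wild-type libraries, though only just above wild-type library 2. Such a lack of overlap was seen in 36.6% of all tested genes, and Grb14 did not pass the test (log2 fold change 0.30, SE 0.228, 95% interval -0.22 to 0.82, edgeR quasi-likelihood adjusted p = 0.407). The interval includes no change and a rise of up to 1.77-fold. Grb7 (ENSMUSG00000019312; chromosome 11, 98337220 to 98346199, plus strand), an adaptor known for binding ERBB2 and focal adhesion kinase, had 7, 5 and 4 counts in the knockout and 2, 1 and 3 counts in the wild type. These counts were too low for the expression filter. The summed counts, 16 against 6, give a ratio of 2.39 with an exact 95% counting interval of 0.889 to 7.46, and with no filter on low counts Grb7 did not pass either (log2 fold change 1.29, edgeR quasi-likelihood adjusted p = 0.575).

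Per length, Grb10 made up nearly all adaptor RNA of the family in wild-type cells. The deposited FPKM, a level divided by gene length, averaged 23.5 ± 2.54 for Grb10, 0.296 ± 0.0509 for Grb14 and 0.0241 ± 0.0117 for Grb7 in the wild type (SD, n = 3). Grb10 thus stood above 82.3% of all tested genes in wild-type cells, Grb14 above 7.97% and Grb7 above 0.108%. In the knockout the averages were 0.00746 ± 0.00914 for Grb10, 0.368 ± 0.00829 for Grb14 and 0.0596 ± 0.0258 for Grb7 FPKM (SD, n = 3). The sum over the 3 adaptors was 0.458, 0.427 and 0.419 FPKM in the knockout libraries against 20.9, 25.3 and 25.3 FPKM in the wild-type libraries. Grb10 held 98.6% to 98.8% of that sum in the wild-type libraries and at most 4.13% in the knockout libraries, where Grb14 held 79.49% to 90.02%. The levels of Grb14 and Grb7 in the knockout stayed far below that of Grb10 in the wild type. These sums and shares follow from the loss of Grb10 for which it was chosen and carry no test.

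**Figure D1:**
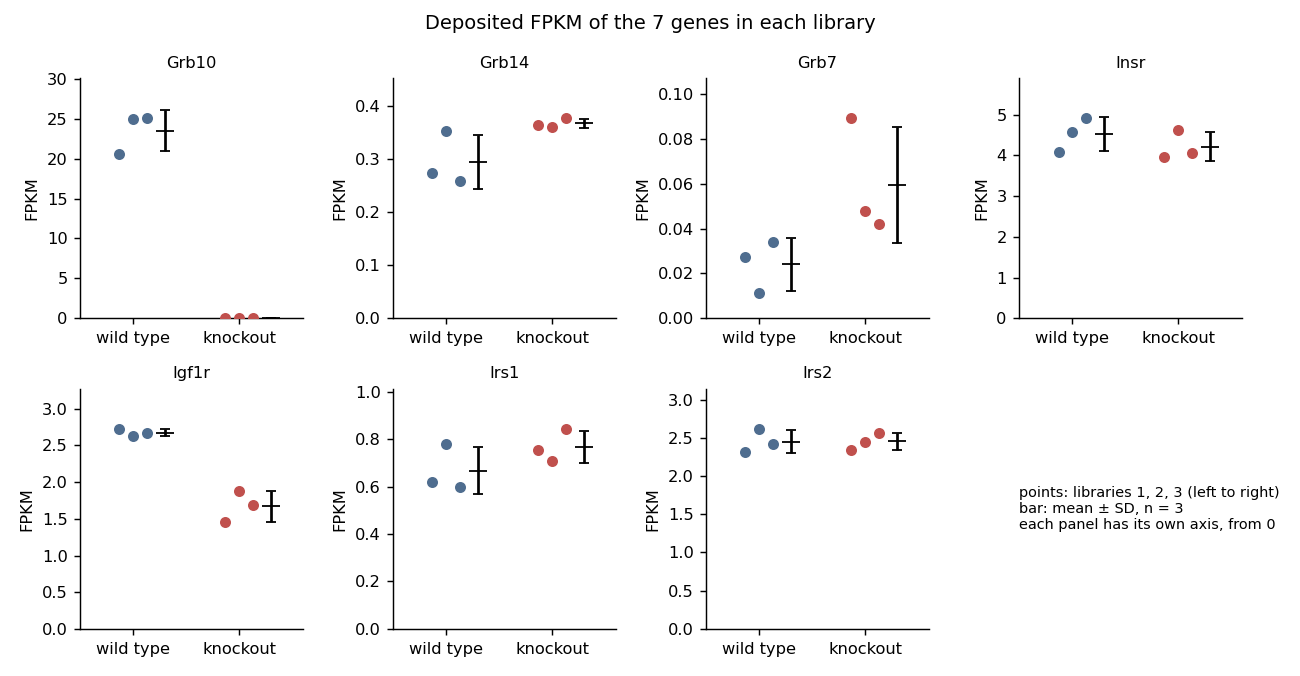
Deposited FPKM (vertical axes, each from 0) of the 7 genes, with 1 point per library in the order of replicates 1, 2 and 3 and a bar for the mean ± SD (n = 3 per group). Grb10 falls from a mean of 23.5 to 0.00746 FPKM and Igf1r from 2.67 to 1.67 FPKM, while the groups overlap for Insr, Irs1 and Irs2.

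Of the receptors, Igf1r was lower in the knockout and Insr was not distinguishable. Igf1r (ENSMUSG00000005533; chromosome 7, 67602575 to 67883416, plus strand), the receptor for IGF1 and IGF2, was at 24.5, 31.2 and 28.3 CPM in knockout cells and at 46.6, 44.1 and 44.9 CPM in wild-type cells. All knockout libraries lay below all wild-type libraries, by more than the spread in either group. A lack of overlap in either direction was seen in 36.6% of all tested genes. Igf1r fell to 0.620 of its wild-type level, a log2 fold change of -0.69 (SE 0.108, 95% interval -0.94 to -0.44, edgeR quasi-likelihood adjusted p = 0.00592). Of all tested genes, 15.2% passed this test, 7.69% as higher and 7.48% as lower in the knockout. Igf1r passed under all 17 alternative settings, with log2 fold changes from -0.77 to -0.46 and adjusted p from 1.10e-05 to 0.0329 (edgeR, DESeq2 and limma), among them the fits without each library in turn. The authors' deposited table gives -0.63 for Igf1r, with an adjusted p of 4.75e-05.

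Insr (ENSMUSG00000005534; chromosome 8, 3172061 to 3329617, minus strand), the insulin receptor gene, was at 54.7, 63.1 and 55.8 CPM in knockout cells and at 57.3, 63.1 and 67.5 CPM in wild-type cells. The groups overlapped, and the difference was smaller than the spread between libraries (log2 fold change -0.11, SE 0.0992, edgeR quasi-likelihood adjusted p = 0.470). Its 95% interval, from -0.34 to 0.11, corresponds to 0.789 to 1.08 times the wild-type level. Insr passed in 1 of 17 alternative settings, with knockout library 2 and wild-type library 1 left out together (log2 fold change -0.24, edgeR quasi-likelihood adjusted p = 0.00483). In that setting 7556 of all 14825 tested genes passed. In the fit of all 6 libraries with GC and length trends removed, the value for Insr was 0.01. The part of GC content in the Insr values was not tested.

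Relative to Igf1r, Insr RNA was higher in each knockout library than in any wild-type library. The ratio of Insr to Igf1r FPKM was 2.73, 2.47 and 2.41 in the knockout libraries and 1.502, 1.746 and 1.838 in the wild-type libraries, with means of 2.535 ± 0.172 and 1.695 ± 0.174 (SD, n = 3 each). The groups did not overlap, and the exact two-sided permutation p was 0.1, the smallest that 3 libraries against 3 allow (0.167 adjusted over the 5 sums and ratios tested this way). Igf1r made up 26.8% to 29.3% of the summed FPKM of both receptors in the knockout and 35.2% to 40.0% in the wild type. That sum itself was 5.41 to 6.49 FPKM in the knockout and 6.81 to 7.58 FPKM in the wild type (exact two-sided permutation p = 0.1). The Igf1r share is the ratio in another form, so the 5 measures adjusted over are not independent. Ratio, share and sum all contain the Igf1r values tested above and are no separate evidence. Hybrid receptors of the INSR and IGF1R proteins form in many cells, and RNA levels do not measure them. Igf2r, the clearance receptor that takes up IGF2 without signalling through a kinase, measured 451, 481 and 456 CPM in knockout cells and 389, 464 and 440 CPM in wild-type cells, and did not pass (log2 fold change 0.10, edgeR quasi-likelihood adjusted p = 0.507).

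**Figure D2:**
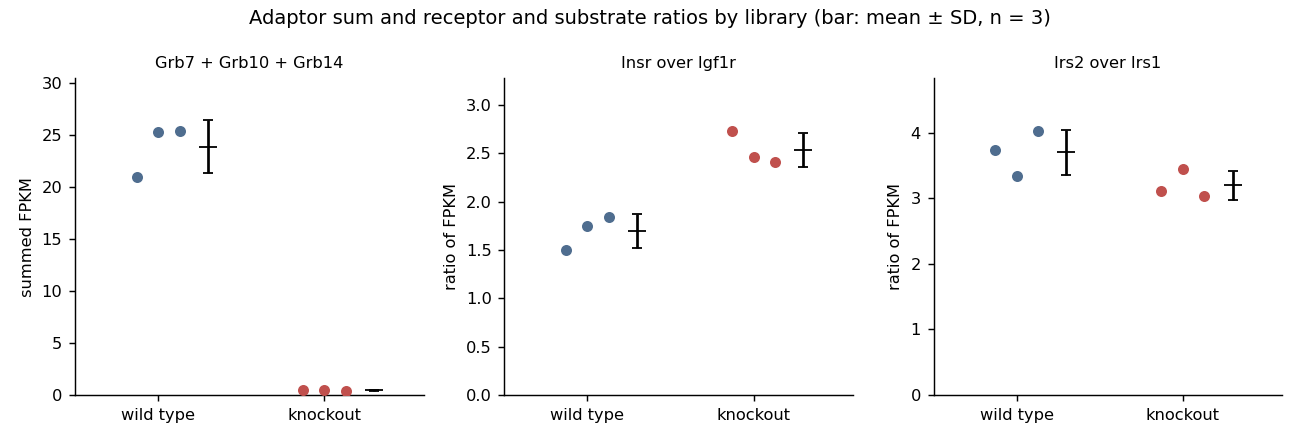
Summed FPKM of the 3 adaptors (left), the ratio of Insr to Igf1r FPKM (middle) and the ratio of Irs2 to Irs1 FPKM (right), with 1 point per library and a bar for the mean ± SD (n = 3 per group), all axes from 0. The Insr to Igf1r ratio is at least 2.41 in the knockout libraries and at most 1.84 in the wild-type libraries, whereas the Irs2 to Irs1 ratios overlap.

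The docking proteins did not differ detectably between the groups. Irs1 (ENSMUSG00000055980; chromosome 1, 82210822 to 82269137, minus strand) was at 6.93, 6.45 and 7.70 CPM in knockout cells and at 5.79, 7.15 and 5.48 CPM in wild-type cells, and the groups overlapped (log2 fold change 0.19, 95% interval -0.18 to 0.57, edgeR quasi-likelihood adjusted p = 0.460). Irs2 (ENSMUSG00000038894; chromosome 8, 11034681 to 11058458, minus strand), the docking protein most associated with insulin action in liver, was at 14.9, 15.4 and 16.2 CPM in knockout cells and at 14.9, 16.5 and 15.3 CPM in wild-type cells. Its log2 fold change was -0.01, with a 95% interval of -0.25 to 0.23 that spans 0.841 to 1.18 times the wild-type level (edgeR quasi-likelihood adjusted p = 0.969). The ratio of Irs2 to Irs1 FPKM was 3.11, 3.45 and 3.04 in the knockout and 3.73, 3.35 and 4.03 in the wild type, and here too the groups overlapped (exact two-sided permutation p = 0.2). Antisense or overlapping features lie within Irs1, Irs2 and Insr in the table, but none had more than 8 counts in a group.

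Ordered by FPKM, the wild type ran Grb10, Insr, Igf1r, Irs2, Irs1, Grb14, Grb7, and the knockout Insr, Irs2, Igf1r, Irs1, Grb14, Grb7, Grb10. In neither group did the ranges of neighbours in the order overlap. Igf1r and Irs2 were the closest pair of the wild type, at 2.63 to 2.72 FPKM against 2.32 to 2.61 FPKM. In the knockout the order of this pair was the other way round, with Irs2 at 2.35 to 2.57 FPKM and Igf1r at 1.45 to 1.87 FPKM. In all, 1 of the 5 tested members other than Grb10 passed, against 15.2% of all tested genes.

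**Figure D3:**
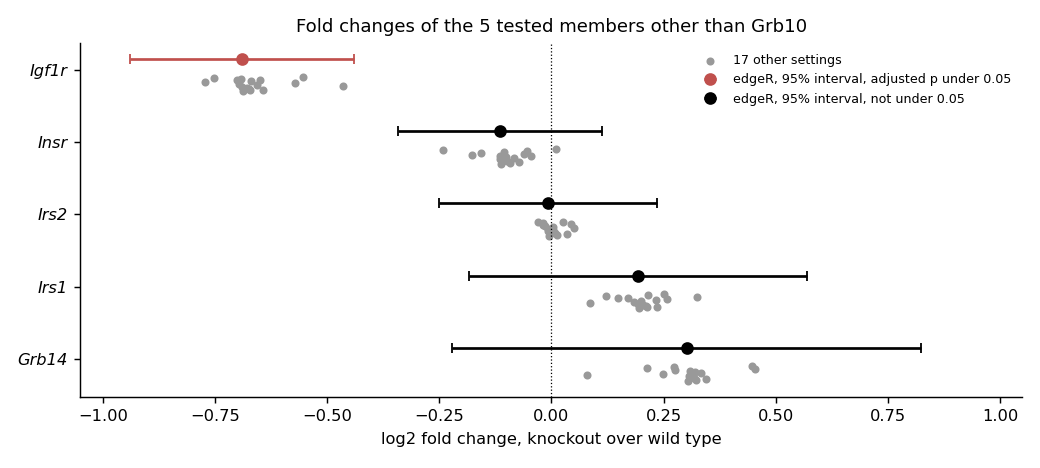
Log2 fold change of knockout over wild type (horizontal axis) for the 5 tested members other than Grb10, with the edgeR estimate and its 95% interval above and the values under 17 other settings (grey points) below. All values of Igf1r lie between -0.77 and -0.46, while the intervals of Insr, Irs2, Irs1 and Grb14 include 0.

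Beyond the members, 131 genes of insulin and IGF signalling were grouped by role. Of these, 107 were tested, 9 rose, 7 fell and 91 did not pass (edgeR quasi-likelihood adjusted p under 0.05). These 16 calls are a share near the 15.2% of all tested genes. The median log2 fold change over the lists was -0.03, against -0.02 over all tested genes. When each library was left out in turn, 5 of the 16 called genes, Igfbp6, Pappa2, Trib3, Elovl6 and Acacb, passed in each fit, and 11 missed the threshold in at least 1. With knockout library 2 and wild-type library 1 left out together, 61 of 107 list genes passed. In that fit, which kept only the libraries closest to each other in each group, 7556 of all 14825 tested genes passed. The 61 included Rictor, Mapk3, Dok1, Socs2, Nedd4l, Pik3r1, Eif4e, Eif4ebp2, Foxo3 and Trib1, which did not pass with all 6 libraries.

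Ligand genes were not detected. Ins1, Ins2, Igf1 and Igf2 had 0 counts in all 6 libraries, under the same limits of 0.0361 CPM in knockout cells and 0.0403 CPM in wild-type cells. Of 12 genes for IGF-binding proteins and the proteins that cleave or regulate them, 5 were tested, of which 2 rose and 1 fell. The calls are 60.0% of these 5, against 15.2% of all tested genes, in a list chosen with earlier results known. Igfbp6, whose product binds IGF2 with preference, rose from 47.3, 56.8 and 49.8 CPM in wild-type cells to 114, 91.9 and 124 CPM in knockout cells (log2 fold change 1.10, edgeR quasi-likelihood adjusted p = 0.00224). It was 2.15-fold higher, with no overlap, as in 36.6% of all tested genes. Igfbp4, another carrier of IGFs, rose from 2.85, 2.06 and 2.09 CPM to 7.58, 4.40 and 5.21 CPM (1.30, edgeR quasi-likelihood adjusted p = 0.0150), and its adjusted p was 0.0533 to 0.0657 on leaving out knockout library 1 or either of wild-type libraries 2 and 3. Pappa2, a protease that cleaves IGFBP3 and IGFBP5, fell from 3.69, 5.17 and 5.25 CPM to 0.990, 1.34 and 1.86 CPM (-1.74, edgeR quasi-likelihood adjusted p = 0.00690). Igfbp1 and Igfbp2, carriers typical of hepatocytes, had 0 counts in both groups.

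Of 14 tested docking proteins and adaptors beside the members, 1 rose and 1 fell, a share of 14.3% against 15.2% of all tested genes. Dok4, a docking protein of receptor tyrosine kinases, rose from 13.02, 14.63 and 15.03 CPM to 22.7, 20.2 and 20.2 CPM (log2 fold change 0.56, edgeR quasi-likelihood adjusted p = 0.0144, and 0.0512 to 0.0656 on leaving out knockout library 1 or either of wild-type libraries 2 and 3). Sh2b3, an adaptor that restrains cytokine receptor signalling, fell from 119, 125 and 117 CPM to 90.5, 81.1 and 84.9 CPM (-0.49, edgeR quasi-likelihood adjusted p = 0.00781, and 0.0633 without knockout library 3). Dok1 was at 40.2, 25.2 and 37.9 CPM in knockout cells against 24.31 to 24.96 CPM in wild-type cells and did not pass (0.48, edgeR quasi-likelihood adjusted p = 0.0901). Knockout library 2 alone was near the wild type for Dok1, and without it the gene passed (0.67, edgeR quasi-likelihood adjusted p = 0.00130).

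Of 7 genes for proteins known to bind GRB10, 0 passed edgeR's quasi-likelihood test at the adjusted threshold, against 15.2% of all tested genes. In the same test 1 of them, Nedd4l, had an unadjusted p under 0.05. DESeq2 called 0 as well, while 1 passed with no filter on low counts and 1 after correction of GC and length trends. With knockout library 2 and wild-type library 1 left out together 2 passed, where 7556 of all 14825 tested genes did. Nedd4, a ubiquitin ligase that GRB10 brings to the IGF1 receptor, averaged 1722 ± 283 CPM over the knockout and 1853 ± 256 CPM over the wild-type libraries (SD, n = 3; log2 fold change -0.11, edgeR quasi-likelihood adjusted p = 0.663), and was named after its value was seen. Its relative Nedd4l (0.18) and the caveolar protein gene Cav1 (0.25) had the smallest p of the list, with adjusted p of 0.153 and 0.188 by edgeR's quasi-likelihood test. Gigyf1, named for the binding of its product to GRB10, was at 38.58, 22.43 and 36.55 CPM in knockout cells and at 83.2, 38.4 and 37.4 CPM in wild-type cells. Wild-type library 1 was far above all others, and the log2 fold change was -0.70 with that library (edgeR quasi-likelihood adjusted p = 0.190, and 0.000222 with no filter on low counts) and -0.21 without it (0.582).

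In each of the PI3-kinase, AKT and Ras-MAPK arms downstream of the receptors 1 gene passed. These are 16.7%, 8.33% and 8.33% of the tested genes of each arm, against 15.2% of all tested genes. Of 6 PI3-kinase subunits 1 rose: Pik3cd, the catalytic subunit p110 delta, went from 8.45, 9.62 and 8.64 CPM to 12.96, 12.64 and 13.05 CPM (log2 fold change 0.53, edgeR quasi-likelihood adjusted p = 0.0209). Pik3cb (0.31) and the regulatory subunit gene Pik3r1 (-0.31) did not pass, though Pik3cb did after correction of GC and length trends (0.38, edgeR quasi-likelihood adjusted p = 0.0444). Of 12 genes of the AKT arm 1 fell: Tbc1d4, a Rab GTPase-activating protein and AKT substrate that controls glucose transporter traffic, went from 23.5, 21.9 and 25.4 CPM to 15.03, 17.39 and 14.60 CPM (-0.59, edgeR quasi-likelihood adjusted p = 0.0140). Rictor, the defining subunit of mTORC2 (-0.37), did not pass, but did without knockout library 2 (-0.50, edgeR quasi-likelihood adjusted p = 0.0107), and was -0.185 after correction of GC and length trends. Of 12 genes of the Ras-MAPK arm 1 fell: Hras, a small GTPase gene, went from 130, 115 and 109 CPM to 93.9, 75.9 and 93.8 CPM (-0.43, edgeR quasi-likelihood adjusted p = 0.0415). Mapk3 (0.22) did not pass, but did without knockout library 2 (0.32, edgeR quasi-likelihood adjusted p = 0.0273). Pik3cd missed the threshold on leaving out knockout libraries 1 or 3 or, among wild-type libraries, 2 or 3 (edgeR quasi-likelihood adjusted p = 0.0542 to 0.0944), Tbc1d4 on leaving out either of knockout libraries 1 and 3 or wild-type library 3 (0.0719 to 0.0814), and Hras without any library other than knockout library 2 (0.0882 to 0.109). Hras passed in 7 of 17 alternatives, and its adjusted p was also over the threshold with library totals alone (0.0559, edgeR), no filter (0.0603, edgeR) and limma on log2(FPKM + 1) (0.0572) and log2(FPKM + 0.1) (0.0546).

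Among inhibitors of the pathway, 2 of 19 tested genes rose and 17 did not pass, a share called of 10.5% against 15.2% of all tested genes. Trib3, a pseudokinase that binds AKT, rose from 215, 222 and 208 CPM to 436, 359 and 423 CPM (log2 fold change 0.92, edgeR quasi-likelihood adjusted p = 0.00154). Enpp1, an ectoenzyme reported to bind and inhibit the insulin receptor, rose from 2.57, 2.85 and 3.35 CPM to 5.77, 7.56 and 4.22 CPM (1.00, edgeR quasi-likelihood adjusted p = 0.0309, and 0.0738 to 0.0982 without knockout library 1 or any 1 wild-type library). Enpp1 passed in 9 of 17 alternatives, and its adjusted p was also over the threshold by limma voom (0.0501) and limma on log2(FPKM + 1) (0.0758) and log2(FPKM + 0.1) (0.0657). Socs2, a feedback inhibitor of growth hormone and IGF signalling, was at 11.5, 13.9 and 12.5 CPM in knockout cells and at 18.2, 15.1 and 16.6 CPM in wild-type cells and missed the threshold (-0.39, edgeR quasi-likelihood adjusted p = 0.0713), but passed without knockout library 2 (-0.46, 0.0233).

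In the mTORC1 arm 1 of 13 genes rose and none fell, a share called of 7.69% against 15.2% of all tested genes. This was Eif4ebp1, the repressor of cap-dependent translation that mTORC1 inactivates, at 254, 203 and 267 CPM in knockout cells against 180, 176 and 162 CPM in wild-type cells (log2 fold change 0.48, edgeR quasi-likelihood adjusted p = 0.0295, and 0.0919 to 0.123 on leaving out knockout libraries 1 or 3 or, among wild-type libraries, 2 or 3). Its relative Eif4ebp2 (-0.30) and its binding partner Eif4e (-0.29) had lower values in the knockout without passing. By edgeR's quasi-likelihood test Eif4ebp2 passed with library totals alone (adjusted p = 0.0472) and without wild-type library 1 (0.0260), and Eif4e without knockout library 2 (0.0254). Of 9 tested FOXO factors and their liver targets 1 rose, or 11.1%, against the same 15.2%. This was Ccng2, an atypical cyclin gene induced by FOXO factors, which went from 49.0, 55.7 and 53.2 CPM to 66.0, 81.1 and 68.0 CPM (0.45, edgeR quasi-likelihood adjusted p = 0.0271, and 0.0527 to 0.0973 without any library other than knockout library 2). Foxo3 (-0.32) and Trib1 (-0.28) did not pass, though Trib1 did without wild-type library 1 (-0.32, with an adjusted p of 0.0473 by edgeR). The gluconeogenic FOXO targets of liver were at or near 0: G6pc had 0 counts in both groups and Pck1 0 in the knockout and 1 in the wild type.

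Of the lipogenic genes that insulin induces in liver, 9 were tested, 1 rose, 3 fell and 5 did not pass. The calls are 44.4% of these 9, against 15.2% of all tested genes, in a list chosen with earlier results known. Elovl6, a fatty acid elongase, fell from 243, 275 and 289 CPM to 162, 178 and 172 CPM (log2 fold change -0.66, edgeR quasi-likelihood adjusted p = 0.00442). Fasn, fatty acid synthase, fell from 789, 953 and 925 CPM to 650, 598 and 637 CPM (-0.50, edgeR quasi-likelihood adjusted p = 0.0155). Acaca, the cytosolic acetyl-CoA carboxylase, which was named after its value was seen, fell by 0.44 on the log2 scale (0.0168). Acacb, the mitochondrial carboxylase, rose from 6.16, 6.81 and 7.15 CPM to 11.54, 12.96 and 12.35 CPM (0.87, edgeR quasi-likelihood adjusted p = 0.00449). The members therefore moved both ways, and Srebf1, which encodes the transcription factor SREBP1, named after its value was seen, did not pass (0.26). Fasn and Acaca missed the threshold on leaving out knockout libraries 1 or 3 or, among wild-type libraries, 2 or 3 (edgeR quasi-likelihood adjusted p = 0.0783 to 0.0917 for Fasn and 0.0836 to 0.111 for Acaca), and both also after correction of GC and length trends (0.0738 for Fasn and 0.0584 for Acaca).

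**Figure D4:**
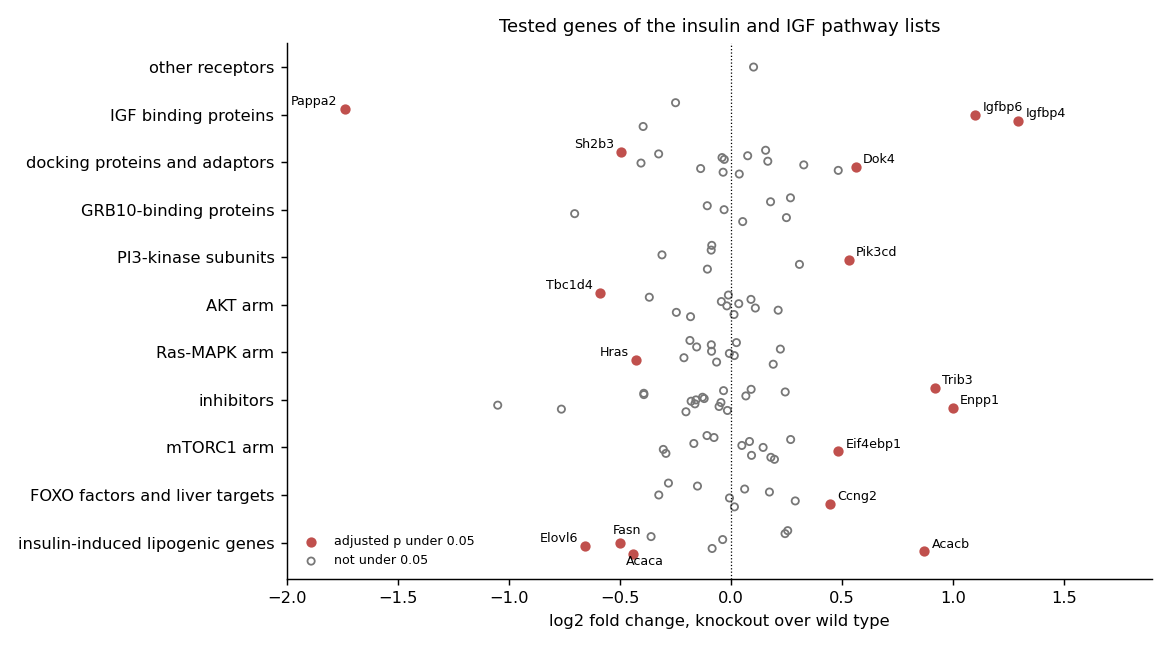
Log2 fold change of knockout over wild type (horizontal axis) of the 107 tested pathway genes, 1 point per gene, in rows by role. Filled points are the 16 genes with an edgeR quasi-likelihood adjusted p under 0.05, of which 9 lie above 0 and 7 below.

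Of 25 tested genes within 500 kb of Grb7, 1 rose and 1 fell, where 15.2% of all tested genes passed. Erbb2, the receptor to which GRB7 binds, lies 8.7 kb away and rose from 24.0, 25.1 and 24.9 CPM to 34.6, 30.3 and 34.8 CPM (log2 fold change 0.43, edgeR quasi-likelihood adjusted p = 0.0231, and 0.0810 to 0.0973 on leaving out knockout libraries 1 or 3 or, among wild-type libraries, 2 or 3). Nr1d1, a circadian repressor gene named after its value was seen, fell by 1.09 on the log2 scale (0.00726). Within 500 kb of Grb14 2 genes were tested, and Cobll1, its neighbour at 63.4 kb, did not pass (log2 fold change -0.08, edgeR quasi-likelihood adjusted p = 0.688). It did pass with knockout library 2 and wild-type library 1 left out together (-0.26, edgeR quasi-likelihood adjusted p = 0.00236), as did 7556 of all 14825 tested genes.

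The genes whose pattern was most like that of Grb10 were Pcdh19, Fbn2, Zfp449, Peg3 and Slc43a3. Likeness was the Euclidean distance between log2 CPM values centred on each gene's mean over the 6 libraries, and these 5 tested protein-coding genes were at distances of 5.36, 5.50, 5.90, 6.06 and 6.23, against a median of 13.2. None of them lies on chromosome 11. Pcdh19, a protocadherin gene, had 0 counts in the knockout and 132, 189 and 166 counts in the wild type. Fbn2, a fibrillin gene, had 0 and 117, 180 and 152 counts, and the zinc finger gene Zfp449 had 0 and 119, 116 and 118 counts. Peg3, a zinc finger gene that is imprinted and expressed from the paternal allele, had 1, 0 and 2 counts in the knockout and 129, 195 and 195 counts in the wild type. Slc43a3, a purine transporter gene, had 1 count in each knockout library and 144, 138 and 154 counts in the wild type. All 5 had wild-type counts at most 519 in sum, against 16133 for Grb10. These genes were found in the same comparison that singled out Grb10, so their pattern is a description.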

How the data were processed

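The authors deposited 1 table for the series. Per the file headers it holds raw gene counts, which are whole and entered the fit unchanged. FPKM values deposited beside them served for levels between genes. The deposited signal (a mean of scaled counts per group), log2 fold changes and p-values are from a comparison by the authors. For its tool, the aligner, the counter and the strand setting, names were not given in the sources used here. As builds, GRCm38 and mm10 are named in the submitters' processing notes. None of the 7 genes has the coordinates of GENCODE M21 on GRCm38 (1494 of 52081 shared identifiers do), so the table's coordinates are given as deposited, with their build unsettled, and only promoter windows are on GRCm38.

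The fit used edgeR 4.0.16 under R 4.3.3 on the 14842 genes, of 27065 with a count, that filterByExpr kept, with TMM scaling and a quasi-likelihood F test of knockout over wild type that had no covariates. P-values were adjusted by Benjamini-Hochberg over all tested genes and called under 0.05. Of the 7 members, 6 passed the filter, all but Grb7. As a check of direction and recovery, the fit was run on simulated counts with planted changes. The simulation held no library that stood apart and no GC trend, so it does not cover these features of the data. Alternatives were RLE factors, library totals, no filter, a mean of at least 1 CPM, DESeq2 1.42.0, limma 3.58.1 (voom, log2(FPKM + 1), log2(FPKM + 0.1)), a replicate block and left-out libraries. Removal of GC and length trends was added after seeing the data. Sums and ratios were compared by exact permutation (scipy 1.17.1).

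The members and lists were chosen with earlier results of these data known. From each list, up to 3 tested genes with the smallest p were named, passed or not, besides neighbours within 500 kb of the adaptor genes and the 5 genes most like Grb10 (prior count 2). Names outside this rule are the genes said to be named after their values were seen and the untested genes given with their counts (the ligand genes, Igfbp1, Igfbp2, G6pc and Pck1), which were likewise chosen with their counts known. Some genes that the rule names are not reported here.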

Additional observations from a re-analysis of the deposited data

How the results depend on the processing

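Igf1r passed, and Grb14 and Irs1 did not, under all 17 alternatives. The calls over all genes numbered 2252 of 14842 tested, and from 807 to 4295 with 1 library left out. They numbered 7556 of 14825 tested when knockout library 2 and wild-type library 1 were left out together. The pathway lists held 16 calls, from 6 to 33 with 1 library left out and 61 without both. The members other than Grb10 held 1 call, and 2 without both, Insr being the second. With the replicate block, calls numbered 1599 over all genes, 12 in the lists and 1 among the members. Eif4ebp1, Enpp1, Erbb2, Hras and Pik3cd then missed the threshold (edgeR quasi-likelihood adjusted p = 0.0513 to 0.0587). Same-numbered libraries correlated in their deviations at 0.17, -0.03 and -0.20, against -0.22 to 0.29 for libraries of different numbers. The labels do not say whether a number marks a shared culture or day. With 3 libraries per group, these correlations do not settle it.

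Some genes that did not pass changed sign. Irs2, at -0.01, was 0.0125 with library totals alone, 0.0358 with no filter, 0.00873 at a mean of 1 CPM, 0.00295 by DESeq2, 0.00270 and 0.00386 on log2(FPKM + 1) and log2(FPKM + 0.1), 0.0247 after removal of GC and length trends, and -0.0196 to 0.0493 with 1 library left out. Insr was 0.00981 after that removal, Fignl1 -0.00503 without both libraries and Cobll1 0.0192 without knockout library 3 (-0.17 to 0.0192 over the left-out libraries). The cause was not tested. At a few counts per library, depth limits Grb7: the counting interval of its ratio runs from 0.889 to 7.46.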
